A study of Homo sapiens with 20 samples.

Results

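A set of 98 named genes was close to silent in HCT116 cells given vehicle for 12 h. The genes were read at a value of 1 or more in every library of cells given chaetocin or chetomin for 12 h. HCT116 is a human colorectal carcinoma line. The genes were chosen by their 12 h values: both vehicle values under 0.1 and all 4 chaetocin and chetomin values at least 1. They are 98 of the 15381 genes listed at 12 h. Another 54 genes met the same limits and were left out by name, since they had no symbol, carried a clone-type name, were antisense or LINC transcripts, or had names that begin with MIR, ZNF, ABC, CLDN, HBA, HIST or DNAJ. For scale, 683 listed genes, 497 of them with an accepted name, had both 12 h vehicle values under 0.1. Because the 12 h vehicle, chaetocin and chetomin values picked the genes, those values are described below with no test.

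The study treated HCT116 cells with 0.5% DMSO as vehicle or with 500 nM of chaetocin, chetomin, MeS-chaetocin or MeS-chetomin, and took RNA after 5 h or 12 h. Fungi make chaetocin and chetomin, whose ring systems are bridged by sulfur atoms. The MeS compounds are the analogs of each that the labels describe as sulfide-depleted. Each of the 10 groups held 2 biological replicates, 20 poly(A) RNA libraries in all, and every group was the same cell line with no engineered allele.

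Genes that belong to one tissue are normally kept silent elsewhere by the lack of their activators and by repressive chromatin. Histone H3 lysine 9 methylation marks such chromatin, and chaetocin is known as an inhibitor of enzymes that write this mark, SUV39H1 among them. Chetomin is known for disrupting the contact between hypoxia-inducible factor and the coactivators p300 and CBP. An epithelial colon line has no normal use for immunoglobulin heavy chains, myelin proteins, albumin or sperm enzymes, which makes such transcripts easy to see against a background near 0.

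Values are the authors' normalized expression values, of a unit that the sources used here do not name. They behave as values per length: over 12594 genes with a mean value above 1, the ratio of the authors' mean CPM to the value in 12 h vehicle followed the length of the longest transcript, with a Spearman rho of 0.746 across genes, which share their libraries. Their sum per library ran from 875371 to 1170802. One read could be sized in the 12 vehicle and analog libraries, whose effective sizes ran from 24.7 to 39.9 M reads, and could not be sized in the chaetocin and chetomin libraries. Vehicle replicate 1 at 5 h stood apart, its 10 highest genes holding 20.29% of the summed values, while in the other libraries they held 9.42% to 17.29%. Differences are given as log2(value + 1) ± SE with an adjusted p from limma, taken over all genes of the time point. That scale understates changes of low values. Among the epithelial markers, EPCAM stood at a mean of 330 in 5 h vehicle and 213 in 12 h vehicle.

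The limits cut through a continuum of values. Just inside them, the lowest treated value was 1.00 for PKD1L1, 1.01 for MYOZ1, 1.02 for INHBC and AMPD1 and 1.03 for NID1. Just outside, it was 0.98 for HIGD2B, 0.97 for PTX3, and 0.94 for OSM and SPX. On the vehicle side, GOLGA6A and PIANP missed the limit with a vehicle value of 0.10, and DDX25, DKK4 and TECTA with 0.11. In vehicle at 12 h, 42 of the 98 genes were listed at 0 in both libraries. The highest vehicle value was 0.09.

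**Figure D1:**
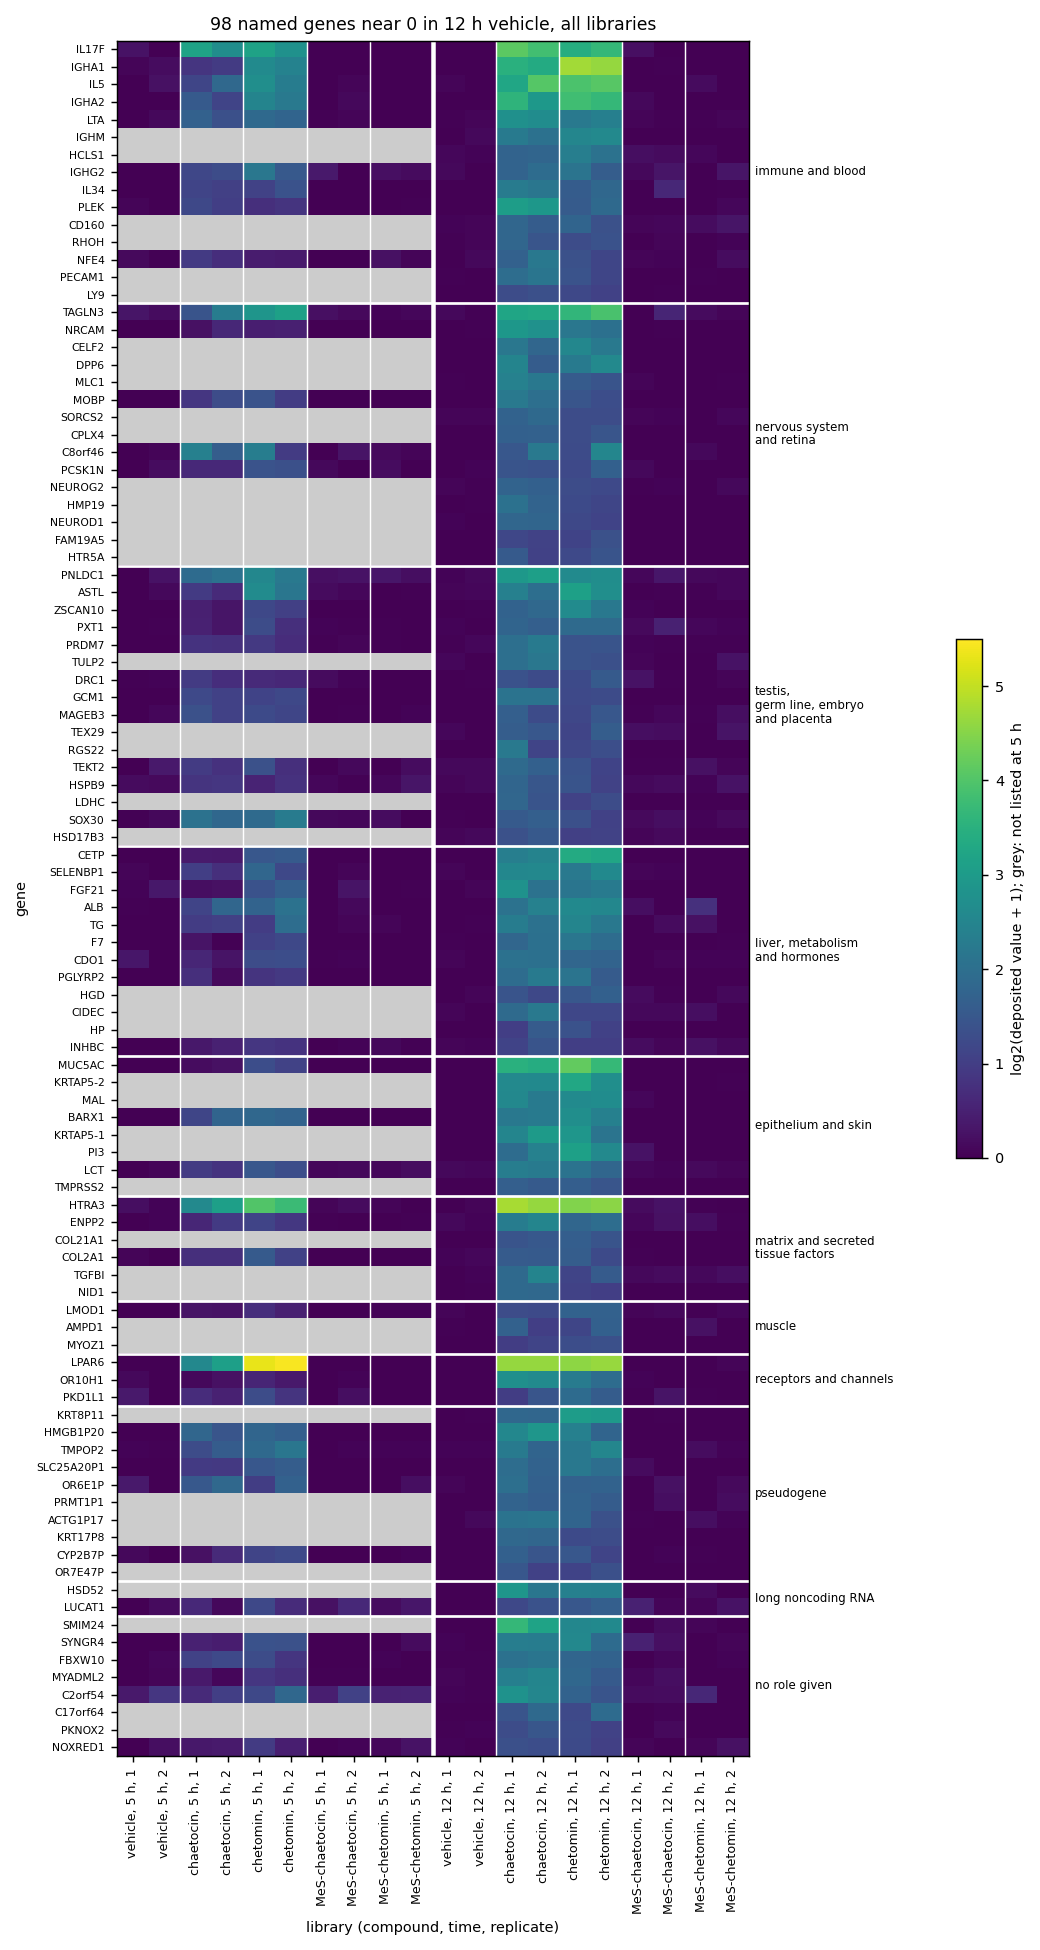
Each row is 1 of the 98 genes and each column 1 of the 20 libraries; colour is log2(deposited value + 1), and grey marks the 43 genes that were not listed at 5 h. Colour stands in the chaetocin and chetomin columns at both times, while the vehicle and analog columns stay near 0 for nearly every gene.

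LPAR6, HTRA3 and IL17F ranked first in the set by the lowest of their 4 treated values at 12 h. LPAR6, a G protein-coupled receptor for lysophosphatidic acid (ENSG00000139679, GRCh38 chromosome 13, 48389567 to 48444704, minus strand), was listed at 0.00 in both 12 h vehicle libraries, 23.69 and 23.90 with chaetocin and 22.69 and 24.07 with chetomin. HTRA3, a secreted serine protease (ENSG00000170801, chromosome 4, 8269765 to 8307111, plus strand), went from 0.00 and 0.05 in vehicle to 26.58 and 23.94 with chaetocin and 20.89 and 22.25 with chetomin. IL17F, a cytokine of T helper 17 cells (ENSG00000112116, chromosome 6, 52236681 to 52244537, minus strand), was at 0.00 in both vehicle libraries, 16.27 and 13.36 with chaetocin and 9.72 and 11.72 with chetomin. With chetomin, IGHA1, IL5, MUC5AC, TAGLN3 and IGHA2 had means above that of IL17F. The median value over the 98 genes was 2.87 and 2.92 in the chaetocin libraries and 2.32 and 2.21 in the chetomin libraries. Each value is an average over all cells of a well, so a rise in few cells and a smaller rise in all cells cannot be told apart.

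At 5 h both compounds had raised these 3 genes. The choice of genes used no 5 h library, but a gene near 0 in vehicle could be listed at 5 h only through a group in which it was high. LPAR6 was at 0.00 in both 5 h vehicle libraries, 4.92 and 7.55 with chaetocin and 39.12 and 42.86 with chetomin. Every treated library lay above every vehicle library, and both chetomin libraries lay above both chaetocin libraries. The difference from vehicle was 2.83 ± 0.25 with chaetocin (limma adjusted p 0.00295) and 5.39 ± 0.24 with chetomin (adjusted p 4.73e-05). LPAR6 overlaps RB1, which runs on the other strand; RB1 itself averaged 9.57 in 5 h vehicle, 16 with chaetocin and 14.8 with chetomin, and the sources used here do not give the strand setting of the counting, so the share of RB1 reads in LPAR6 was not tested.

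HTRA3 read 0.16 and 0.04 in 5 h vehicle, 5.06 and 7.56 with chaetocin, and 15.15 and 12.46 with chetomin. Its differences from vehicle were 2.71 ± 0.25 (limma adjusted p 0.00346) and 3.75 ± 0.24 (adjusted p 0.000248). IL17F read 0.20 and 0.00 in vehicle, 8.08 and 5.45 with chaetocin, and 7.99 and 5.93 with chetomin. Unlike LPAR6 and HTRA3, IL17F showed overlapping values between the compounds, with differences from vehicle of 2.80 ± 0.26 and 2.85 ± 0.24.

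The sequence before the start of these 3 genes is shown because they rank first by lowest treated value, and that of FBXW10 because it was the only gene of the set with a heat shock element in its promoter entry. Each is the 250 bases that precede the RefSeq start in GRCh38.p14, read 5′ to 3′ on the gene's own strand, with capitals for motifs found on either strand: the TATA box TATAAA, the cAMP response element TGACGTCA, the AP-1 site TGANTCA, the antioxidant response element TGACNNNGC, the heat shock element of 3 units and the GC box GGGCGG.
LPAR6, chr13:48413114-48413363, minus strand: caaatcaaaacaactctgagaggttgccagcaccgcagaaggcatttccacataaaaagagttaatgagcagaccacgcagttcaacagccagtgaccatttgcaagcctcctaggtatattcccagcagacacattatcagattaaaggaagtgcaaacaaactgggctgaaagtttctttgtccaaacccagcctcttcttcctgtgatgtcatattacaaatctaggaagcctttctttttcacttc
HTRA3, chr4:8269504-8269753, plus strand: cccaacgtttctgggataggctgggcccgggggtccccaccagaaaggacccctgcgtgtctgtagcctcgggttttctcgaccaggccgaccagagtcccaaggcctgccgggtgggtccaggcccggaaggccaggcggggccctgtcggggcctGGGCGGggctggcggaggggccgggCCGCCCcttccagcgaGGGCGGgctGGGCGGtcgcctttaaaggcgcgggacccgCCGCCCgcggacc
IL17F, chr6:52244501-52244750, minus strand: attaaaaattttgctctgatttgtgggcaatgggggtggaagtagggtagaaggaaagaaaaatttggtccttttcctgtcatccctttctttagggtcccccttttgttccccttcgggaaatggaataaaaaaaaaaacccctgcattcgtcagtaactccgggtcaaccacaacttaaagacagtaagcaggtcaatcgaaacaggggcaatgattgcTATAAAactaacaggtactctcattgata
FBXW10, chr17:18743804-18744053, plus strand: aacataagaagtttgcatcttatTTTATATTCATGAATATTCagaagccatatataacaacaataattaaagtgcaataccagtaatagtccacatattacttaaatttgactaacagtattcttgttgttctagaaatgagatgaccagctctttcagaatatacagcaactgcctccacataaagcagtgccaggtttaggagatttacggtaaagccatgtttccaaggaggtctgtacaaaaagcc

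The 4 sequences have little in common. HTRA3 has 24 CG dinucleotides and 5 GC boxes, IL17F has 4 CG dinucleotides and a TATA box whose first base lies 29 bases before the RefSeq start, and FBXW10 has 1 CG dinucleotide, a heat shock element and, directly before it, a TATA box on the minus strand. The LPAR6 window has 2 CG dinucleotides and none of the 6 motifs; its RefSeq start lies inside the longer GENCODE span given above. In the same 250-base window, 42.31% of the 27303 RefSeq promoters of the table hold a GC box, 11.13% a TATA box, 11.04% an antioxidant response element, 6.6% an AP-1 site, 1.77% a cAMP response element and 0.44% a heat shock element. A promoter entry was found for 56 of the 98 genes, too few for a statement on promoters of the whole set.

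Transcript sequences were at hand for all 98 genes. In the first 300 bases of the longest GENCODE transcript, the observed over expected ratio of CG dinucleotides had a median of 0.43 in the set, 0.46 in 583 other genes with both 12 h vehicle values under 0.1 and 0.72 in all 15339 listed genes with a transcript. Under a ratio of 0.6 lay 74.49% of the set, 64.32% of the other near-silent genes and 37.06% of all listed genes. By description, the set lay closer to the other near-silent genes than to listed genes in general. The set holds 82 protein-coding genes, 4 immunoglobulin constant genes, 10 pseudogenes and 2 noncoding RNAs, and spreads over 23 chromosomes with no more than 8 on any one. The closest pairs were IL17F and SLC25A20P1, 1923 bases apart, and KRTAP5-1 and KRTAP5-2, 11894 bases apart.

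Genes of blood and immune cells made up 15 of the 98. They were the immunoglobulin constant genes IGHA1, IGHA2, IGHM and IGHG2, the cytokines IL5, IL17F, LTA and IL34, the lymphocyte surface receptors LY9 and CD160, the signalling proteins RHOH, HCLS1 and PLEK, the globin regulator NFE4 and the adhesion molecule PECAM1 of endothelium and platelets. IGHA1 and IGHA2, the heavy-chain constant regions of immunoglobulin A, are near-identical copies on chromosome 14, and the division of reads between them is uncertain. IGHA1 was 0.00 in both 12 h vehicle libraries, 10.19 and 9.23 with chaetocin and 25.51 and 23.77 with chetomin. IGHA2 was also 0.00 in vehicle, 10.91 and 6.58 with chaetocin and 13.08 and 11.74 with chetomin. In both genes the chetomin libraries lay above the chaetocin libraries.

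IL5, the cytokine that sustains eosinophils, went from 0.06 and 0.00 in 12 h vehicle to 8.54 and 15.57 with chaetocin and 14.35 and 15.92 with chetomin. IL5 overlaps RAD50, which runs on the other strand and averaged 14.9 in 12 h vehicle, 10.9 with chaetocin, 11.6 with chetomin, 10.9 with MeS-chaetocin and 17.8 with MeS-chetomin; the share of RAD50 reads in IL5 was not tested. LTA, the cytokine lymphotoxin alpha, reached 5.74 and 5.35 with chaetocin and 3.69 and 4.15 with chetomin. PLEK, the pleckstrin of platelets and leukocytes, was the gene most tilted to chaetocin at 12 h, with 7.36 and 6.52 against 2.01 and 2.69 with chetomin. PECAM1 reached 2.89 and 3.41 with chaetocin and 1.67 and 1.23 with chetomin.

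At 5 h, 9 of the 15 blood and immune genes were listed, and 9 rose with chaetocin and 8 with chetomin, beside 4.56% and 7.02% of all genes; NFE4 did not pass the test with chetomin. These listed genes were not all genes of the group, since listing needed a high group. IGHA1 read 0.05 and 0.13 in 5 h vehicle, 0.81 and 0.95 with chaetocin and 5.24 and 4.44 with chetomin, differences of 0.79 ± 0.14 and 2.42 ± 0.20 (limma adjusted p 0.0181 and 0.00071). IGHA2 read 0.00 in both vehicle libraries, 1.96 and 1.19 with chaetocin and 4.57 and 3.66 with chetomin. IL5 read 0.00 and 0.18 in vehicle, 1.23 and 2.60 with chaetocin and 5.59 and 3.99 with chetomin. All 3 genes kept the order vehicle, chaetocin, chetomin with no overlap of libraries.

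IGHG2 was listed at 0.00 in both 5 h vehicle libraries, 1.25 and 1.43 with chaetocin and 3.51 and 1.88 with chetomin. LTA read 0.00 and 0.08 in vehicle, 2.27 and 1.52 with chaetocin and 2.67 and 2.44 with chetomin. For IL34, a ligand of the CSF1 receptor, the vehicle libraries were at 0.00, the chaetocin libraries at 1.17 and 1.06 and the chetomin libraries at 1.13 and 1.62. PLEK read 0.06 and 0.00 in 5 h vehicle, 1.28 and 1.03 with chaetocin and 0.66 and 0.77 with chetomin, with no overlap between any of the 3 groups. NFE4 was higher in both chaetocin libraries, at 0.91 and 0.64, than in the chetomin libraries, at 0.34 and 0.31.

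Genes known from the nervous system and retina also numbered 15. They include the proneural transcription factors NEUROG2 and NEUROD1, the neuronal cytoskeletal protein TAGLN3, the adhesion molecule NRCAM, the serotonin receptor HTR5A, the potassium channel subunit DPP6, the synaptic protein CPLX4 of the retina and the sorting receptor SORCS2. The myelin protein MOBP, the astrocyte membrane protein MLC1, the RNA-binding protein CELF2, the prohormone convertase inhibitor PCSK1N, and HMP19, FAM19A5 and C8orf46 complete the group. TAGLN3 was 0.08 and 0.03 in 12 h vehicle, 8.36 and 8.86 with chaetocin and 11.36 and 14.21 with chetomin. NRCAM reached 6.49 and 5.86 with chaetocin and 3.53 and 3.10 with chetomin from 0.00 and 0.03. The 2 proneural factors were lower, NEUROG2 at 2.38 and 2.23 with chaetocin and 1.42 and 1.31 with chetomin, and NEUROD1 at 2.54 and 2.49 and at 1.28 and 1.16.

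Only 5 of these 15 genes were listed at 5 h. Of these, 4 rose with chaetocin and 5 with chetomin, beside 4.56% and 7.02% of all genes. Listing needed a high group here too, so the counts describe the listed genes only. TAGLN3 read 0.25 and 0.13 in 5 h vehicle, 1.71 and 3.95 with chaetocin and 6.34 and 7.73 with chetomin, differences of 1.62 ± 0.29 and 2.75 ± 0.22 (limma adjusted p 0.0196 and 0.00071). C8orf46 varied widely between replicates, at 4.27 and 2.07 with chaetocin and 4.05 and 0.93 with chetomin. MOBP read 0.83 and 1.41 with chaetocin and 1.64 and 0.96 with chetomin, from 0.01 and 0.00 in vehicle. NRCAM stood at 0.18 and 0.52 with chaetocin, which did not pass the test (adjusted p 0.123), and 0.38 and 0.40 with chetomin.

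The testis, germ line, embryo and placenta gave 16 genes. They were the transcription factor SOX30, the piRNA-trimming nuclease PNLDC1, the sperm lactate dehydrogenase LDHC, the axonemal proteins TEKT2 and DRC1, the testosterone-forming enzyme HSD17B3, the X-linked cancer-testis gene MAGEB3, the egg protease ASTL, the pluripotency factor ZSCAN10 and the placental factor GCM1. TEX29, PXT1, HSPB9, RGS22, PRDM7 and TULP2 are the others. At 12 h PNLDC1 went from 0.04 and 0.09 to 6.60 and 7.63 with chaetocin and 5.22 and 5.52 with chetomin, the highest chaetocin level of the group. ASTL had 4.24 and 2.98 with chaetocin and 7.74 and 5.62 with chetomin. GCM1, the driver of trophoblast fusion, had 3.24 and 3.27 with chaetocin and 1.32 and 1.39 with chetomin.

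SOX30 was the one gene of the set with both 12 h libraries below both 5 h libraries under both compounds. It read 0.03 and 0.08 in 5 h vehicle, 3.18 and 2.55 with chaetocin and 2.73 and 3.86 with chetomin, then 1.96 and 2.15, and 1.52 and 1.09, at 12 h. Its 5 h differences were 1.87 ± 0.18 and 2.01 ± 0.20 (limma adjusted p 0.00428 and 0.00117). PNLDC1 read 0.00 and 0.20 in 5 h vehicle, 2.78 and 3.23 with chaetocin and 4.82 and 3.65 with chetomin. GCM1 was listed at 0.00 in 5 h vehicle and read 1.32 and 1.08 with chaetocin and 1.16 and 1.3 with chetomin. MAGEB3 stood at 1.56 and 1.09 with chaetocin and 1.34 and 1.23 with chetomin, from 0.00 and 0.07. Of the 11 genes of this group listed at 5 h, 8 rose with chaetocin and 11 with chetomin, beside 4.56% and 7.02% of all genes. Since listing needed a high group, these counts describe the listed genes only.

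The liver, metabolism and hormone synthesis account for 12 genes. They are ALB for serum albumin, HP for haptoglobin, F7 for coagulation factor VII, CETP for cholesteryl ester transfer, the hormone FGF21, the tyrosine-degrading enzyme HGD, the inhibin chain INHBC, the amidase PGLYRP2, SELENBP1, CDO1 for cysteine oxidation, the lipid droplet protein CIDEC and the thyroid hormone precursor TG. CETP went from 0.00 in both 12 h vehicle libraries to 4.09 and 4.54 with chaetocin and 9.33 and 8.52 with chetomin. ALB, also at 0.00 in vehicle, reached 3.20 and 4.31 with chaetocin and 5.13 and 4.87 with chetomin. HP lay close to the limit, with 1.04 and 1.99 and with 1.62 and 1.10.

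At 5 h, 9 genes of this group were listed. Of these, 3 rose with chaetocin (ALB, TG and SELENBP1) and all 9 with chetomin, beside 4.56% and 7.02% of all genes. As in the other groups, listing needed a high group, so the counts describe the listed genes only. CETP was at 0.00 in 5 h vehicle, 0.32 and 0.30 with chaetocin and 1.81 and 1.93 with chetomin. FGF21 read 0.04 and 0.27 in vehicle, 0.16 and 0.19 with chaetocin, within the vehicle range, and 1.61 and 2.19 with chetomin. F7 read 0.00 in vehicle, 0.22 and 0.02 with chaetocin and 1.08 and 1.28 with chetomin. ALB read 1.17 and 2.5 with chaetocin and 2.38 and 3.21 with chetomin, from 0.03 and 0.00.

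Epithelial, gut and skin genes numbered 8. MUC5AC, the gel-forming mucin of stomach and airway, was listed at 0.00 in 12 h vehicle, 10.22 and 9.64 with chaetocin and 17.08 and 11.93 with chetomin. KRTAP5-2, a hair keratin-associated protein with a neighbouring near-copy in KRTAP5-1, had 4.99 and 5.12 with chaetocin and 8.86 and 5.62 with chetomin, and the division of reads within the pair is uncertain. MAL, LCT for lactase, the protease inhibitor PI3, the serine protease TMPRSS2 and the homeobox factor BARX1 make up the rest. BARX1 read 0.00 in 5 h vehicle, 1.22 and 2.43 with chaetocin and 2.57 and 2.38 with chetomin, differences of 1.46 ± 0.23 and 1.80 ± 0.16. MUC5AC at 5 h was at 0.14 and 0.18 with chaetocin, which did not pass the test (limma adjusted p 0.254), and at 1.45 and 1.11 with chetomin.

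Matrix and secreted tissue factors gave 6 genes: HTRA3, the cartilage collagen COL2A1, COL21A1, the basement membrane protein NID1, TGFBI and ENPP2. ENPP2 is autotaxin, the enzyme that makes lysophosphatidic acid, the ligand of LPAR6. It went from 0.09 and 0.04 in 12 h vehicle to 3.98 and 4.63 with chaetocin and 2.53 and 2.90 with chetomin. At 5 h ENPP2 read 0.00 and 0.04 in vehicle, 0.51 and 0.90 with chaetocin and 1.19 and 0.85 with chetomin, and it rose with both (0.73 ± 0.15 and 0.98 ± 0.15, limma adjusted p 0.0292 and 0.00535). COL2A1 rose with both as well. Muscle gave MYOZ1, LMOD1 and AMPD1, all with mean 12 h values between 1.10 and 2.30.

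The remaining genes have no clear tissue here. OR10H1 is an olfactory receptor and PKD1L1 a channel-like protein of the polycystin family. The 10 pseudogenes are OR7E47P, PRMT1P1, KRT8P11, KRT17P8, SLC25A20P1, OR6E1P, ACTG1P17, TMPOP2, HMGB1P20 and CYP2B7P; reads of their parent genes may be counted in them, so their levels are uncertain. HMGB1P20 was at 0.00 in 5 h vehicle, 2.53 and 1.74 with chaetocin and 2.48 and 2.17 with chetomin, and TMPOP2 read 0.04 and 0.03, 1.41 and 2.05, and 2.69 and 3.49. LUCAT1 and HSD52 are noncoding RNAs. SMIM24, with 11.61 and 8.14 with chaetocin and 4.81 and 5.07 with chetomin at 12 h, stands beside NOXRED1, C2orf54, PKNOX2, MYADML2, SYNGR4, FBXW10 and C17orf64, for which no tissue is given. FBXW10, an F-box protein, read 0.00 and 0.07 in 5 h vehicle, 1.13 and 1.31 with chaetocin and 1.42 and 0.81 with chetomin, and it rose with both (1.10 ± 0.15 and 1.02 ± 0.17, limma adjusted p 0.00907 and 0.00897).

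**Figure D2:**
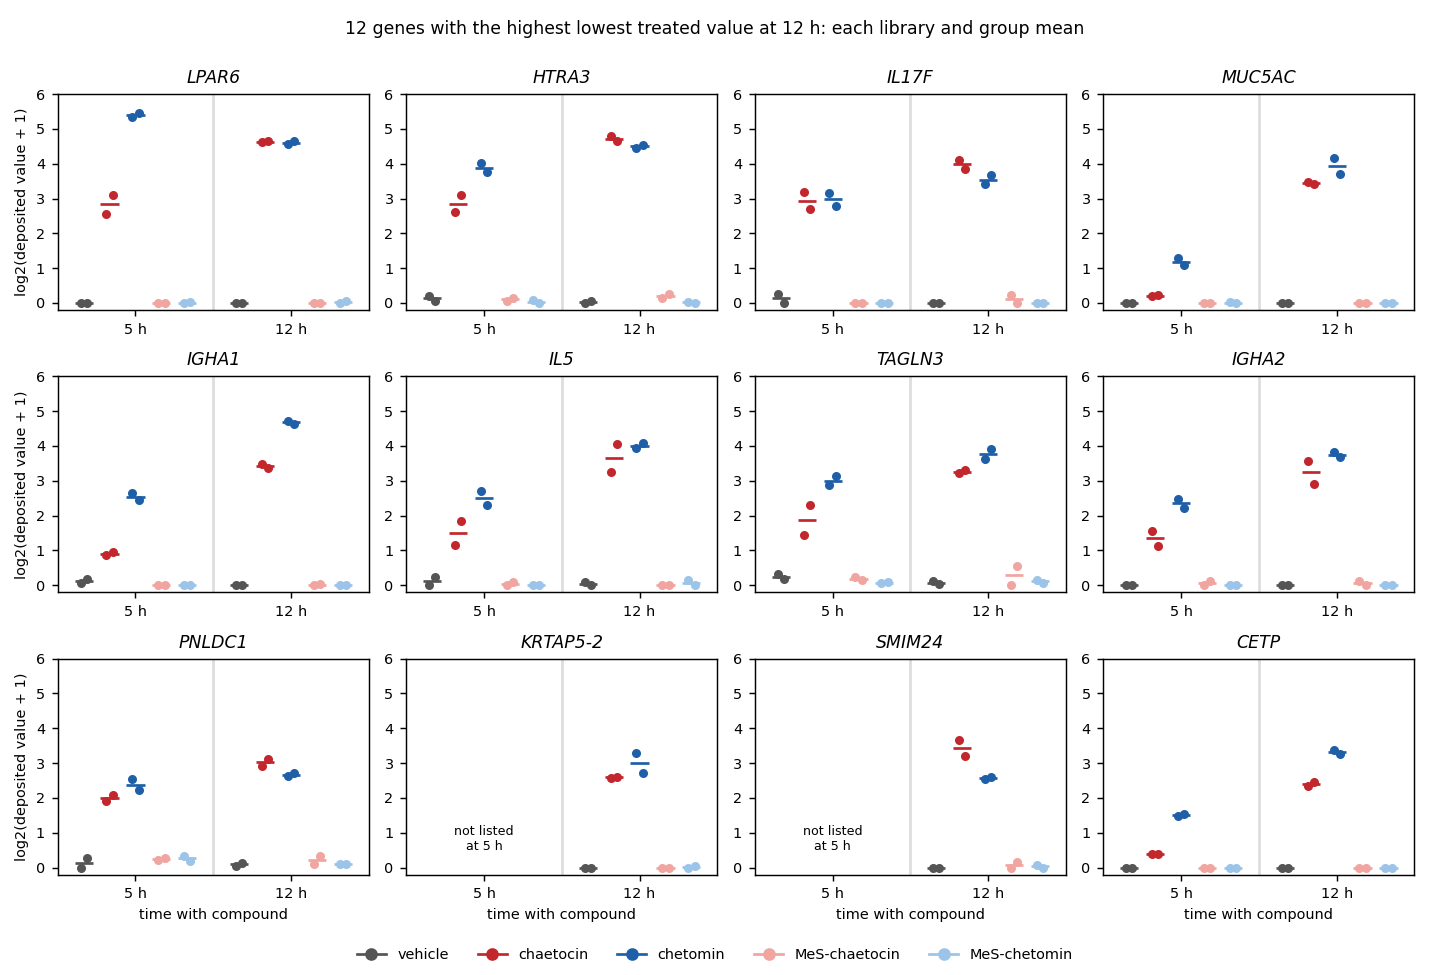
Points are the 2 libraries of each group and bars their mean, as log2(deposited value + 1), for the 12 genes whose lowest treated value at 12 h was highest; KRTAP5-2 and SMIM24 were not listed at 5 h. In each panel the chaetocin and chetomin points stand above the vehicle and analog points at both times.

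At 5 h, 55 of the 98 genes were listed. Both 5 h vehicle libraries were under 0.1 for 38 of the 55 and at 0 for 18. The counts that follow describe these listed genes and carry no weight for the set. With chaetocin, 36 of 55 rose and none fell, beside 4.56% of all 14217 genes tested that rose and 6.53% that fell. The listed genes had a median difference of 0.79 (range 0.03 to 2.83), beside a median of -0.09 over all genes. With chetomin, 51 rose and none fell, beside 7.02% and 8.71% of 14219 genes, and the median difference was 1.19 (range 0.32 to 5.39) beside -0.08 over all genes. The 2 comparisons share their vehicle libraries, and a call in one and not in the other does not show that the compounds differed.

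C2orf54, NOXRED1 and OR10H1 passed the test with neither compound. The authors' deposited table gave a q under 0.05 to 52 of the 55 with chaetocin, beside 14.7% of all genes called higher, and to all 55 listed genes with chetomin, beside 17.2%. On the authors' CPM scale the median difference of all genes moved from -0.09 to 0.07 with chaetocin and from -0.08 to 0.08 with chetomin, and that of the listed genes from 0.79 to 1.14 and from 1.19 to 1.54. With 2 libraries against 2, an exact permutation test cannot reach below p = 0.333, so each call rests on a spread pooled over genes.

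**Figure D3:**
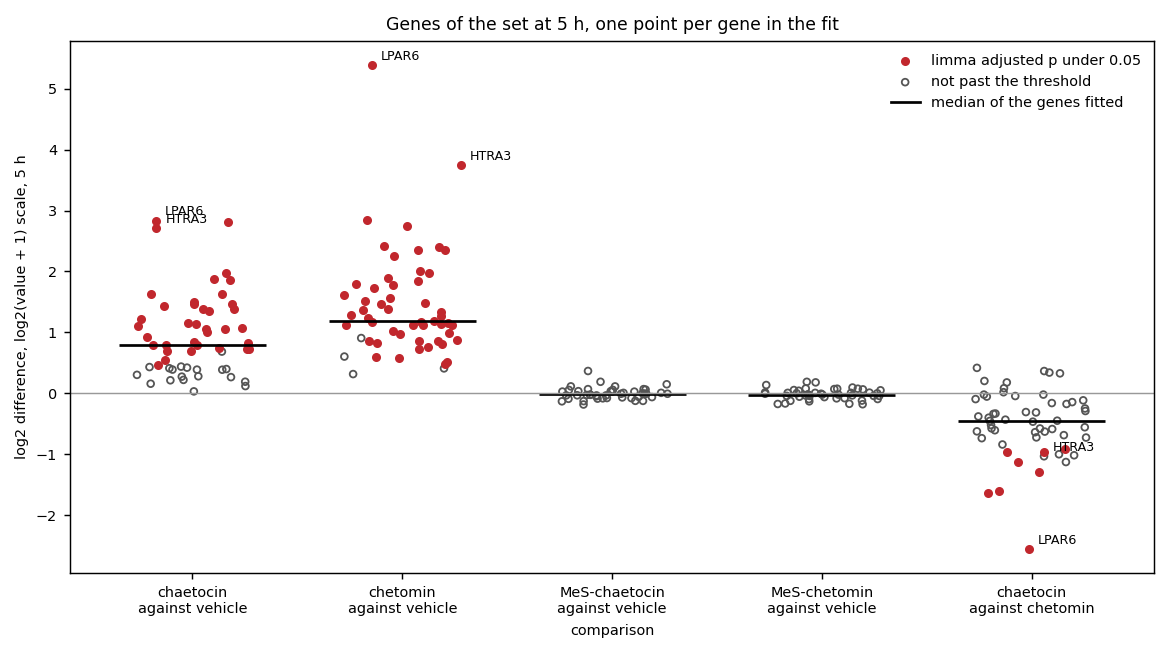
Each point is 1 gene of the set that could be fitted, and its height is the log2 difference at 5 h on the log2(value + 1) scale; filled points passed limma's adjusted p of 0.05 and bars mark medians. Chaetocin and chetomin points lie above 0, analog points lie around 0, and most points of chaetocin against chetomin lie below 0.

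Set directly against each other at 5 h, chetomin gave the higher levels in most of the listed genes. A gene near 0 in vehicle could be listed through chetomin alone, so the counts here describe the listed genes only. The mean was higher with chetomin for 47 of the 55 genes, and both chetomin libraries lay above both chaetocin libraries for 34, beside 26.3% of all genes. By limma, 8 genes were lower with chaetocin and none higher, beside 0.64% of all genes called lower and 0.127% called higher. They were LPAR6 (-2.56 ± 0.24), IGHA1 (-1.63 ± 0.17), ASTL (-1.60 ± 0.21), FGF21 (-1.3 ± 0.17), CETP (-1.13 ± 0.13), MUC5AC (-0.97 ± 0.13), F7 (-0.97 ± 0.14) and SYNGR4 (-0.91 ± 0.13), with limma adjusted p from 0.00758 to 0.0271. Leaving out any 1 of the 4 chaetocin and chetomin libraries left 0 or 1 of these calls.

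ASTL read 0.00 and 0.08 in 5 h vehicle, 0.92 and 0.58 with chaetocin and 5.25 and 3.47 with chetomin. SYNGR4 was at 0.00 in vehicle, 0.41 and 0.36 with chaetocin and 1.61 and 1.59 with chetomin. For IL17F the compounds differed by -0.04, with a 95% interval from -0.65 to 0.56, and for GCM1 by -0.02, from -0.35 to 0.31. The interval for SOX30 ran from -0.62 to 0.33. Those intervals leave room for a moderate difference in either direction.

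By 12 h the order had changed for many genes, by description. The mean was higher with chaetocin for 63 of the 98 genes and for 33 of the 55 genes also listed at 5 h, and 27 of those 55 had the higher mean with chetomin at 5 h and with chaetocin at 12 h. Both chaetocin libraries lay above both chetomin libraries for 43 genes, beside 26.6% of all genes, and below them for 23, beside 30.5%. The ratio of the chaetocin to the chetomin mean ran from 0.366 for KRT8P11 to 2.95 for PLEK, with a median of 1.17. FGF21 shows the change: its chetomin mean was 10.9 times its chaetocin mean at 5 h, and 0.783 times at 12 h.

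**Figure D4:**
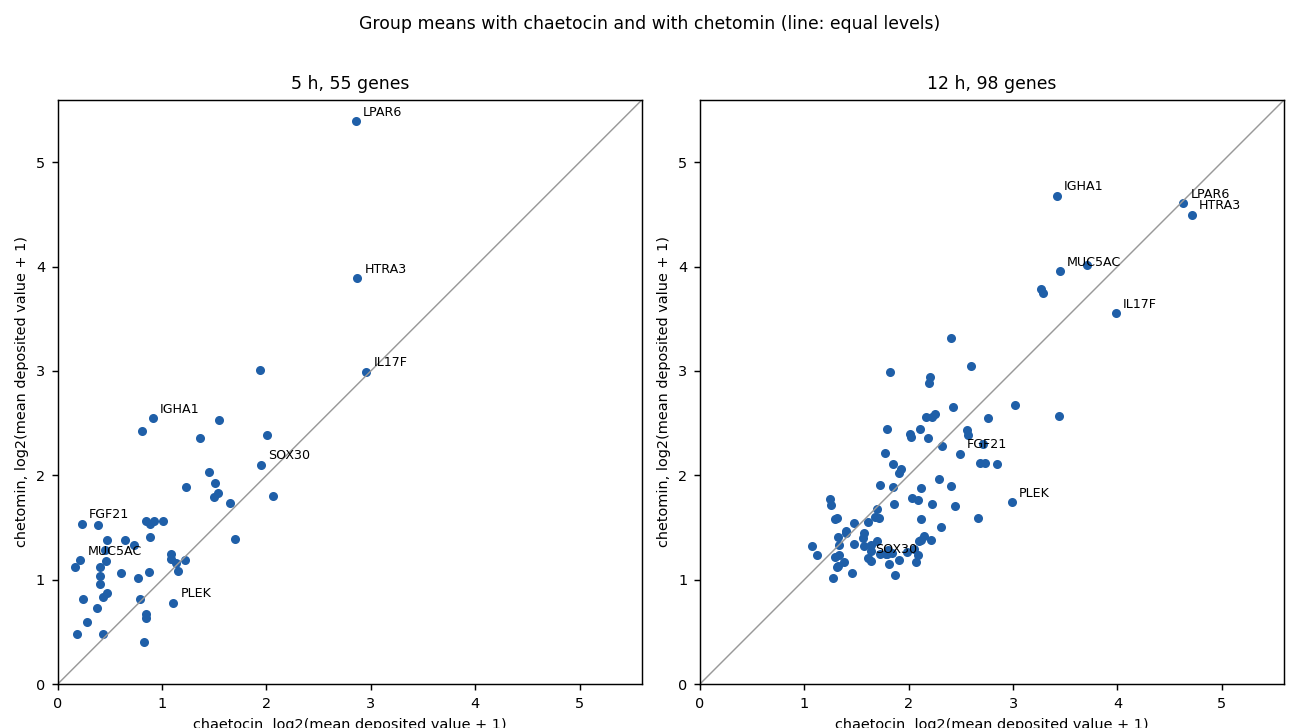
Group means with chaetocin (x axis) and chetomin (y axis) on a log2(value + 1) scale, at 5 h for the 55 listed genes and at 12 h for all 98; the line marks equal levels. At 5 h 47 of 55 points lie above the line, and at 12 h 63 of 98 lie below it.

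The time course differed from gene to gene. Under chaetocin, both 12 h libraries lay above both 5 h libraries for 51 of the 55 genes, beside 40.2% of the genes listed at both times; under chetomin this held for 43, beside 38.7%. The 12 h values had been selected to be high, so these counts carry no test. The 12 h mean was a median of 4.0 times the 5 h mean with chaetocin and 1.82 times with chetomin. MUC5AC had the widest gap, 62.1 times with chaetocin and 11.3 times with chetomin. LPAR6 went the opposite way under chetomin, from a mean of 41.0 ± 2.64 (SD, n = 2) at 5 h to 23.4 ± 0.98 at 12 h, while under chaetocin it went from 6.24 ± 1.86 to 23.8 ± 0.15.

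With the analogs the genes were read at low values, and at 5 h no gene of the set passed the test against vehicle. There, 43 of the genes could be fitted for MeS-chaetocin and 44 for MeS-chetomin, the others being listed at 0 in all 4 libraries of the comparison. None passed limma's test with MeS-chaetocin, where 0% of 14178 genes were called, and none with MeS-chetomin, where 0.141% of 14184 genes were called. None of the set had an unadjusted p under 0.05 with either analog, while 105 and 2290 of all genes did. The differences ran from -0.18 to 0.37 with MeS-chaetocin and from -0.18 to 0.19 with MeS-chetomin. LUCAT1 had the highest of them with MeS-chaetocin, at 0.37 with a 95% interval from -0.04 to 0.77, and read 0.19 and 0.55 against 0.00 and 0.11 in vehicle.

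Chaetocin exceeded MeS-chaetocin for 37 of the 55 genes at 5 h, beside 3.11% of all genes called higher and 3.45% called lower. Chetomin exceeded MeS-chetomin for 53, beside 8.97% higher and 23.9% lower. None of the set was lower in either comparison. Both comparisons share the vehicle libraries in their fit with those above. All 4 chaetocin and chetomin libraries lay above all 4 analog libraries for 52 of the 55 genes, beside 9.59% of all genes. The genes were chosen as high with chaetocin and chetomin at 12 h, and listing at 5 h needed a high group. The counts against the analogs therefore carry no weight for the set. LPAR6 read 0.00, 0.00, 0.00 and 0.01 in the analog libraries, HTRA3 between 0.00 and 0.11 and IL17F 0.00 in all 4. C2orf54 was the one gene with an analog library at 1 or more, 1.09 in MeS-chaetocin replicate 2 and 0.38 in replicate 1, and its 5 h vehicle values were 0.29 and 0.82, the highest vehicle mean of the listed genes.

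At 12 h no gene of the set reached 1 in an analog library. The highest value was 0.70 for ALB in MeS-chetomin replicate 1, with 0.00 in replicate 2. Both MeS-chaetocin libraries were under 0.1 for 68 of the 98 genes and both MeS-chetomin libraries for 71. HTRA3 read 0.11 and 0.20 and LUCAT1 0.42 and 0.06 with MeS-chaetocin at 12 h. Set against each other at 5 h, MeS-chaetocin and MeS-chetomin did not differ past limma's threshold for any of 46 genes that could be fitted, where 0% of all genes were called, and 0 of the 46 had an unadjusted p under 0.05.

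Textbook markers of tissues other than colon were read in part. Of 119 markers of 14 tissues other than colon, 38 were listed at 12 h and 26 at 5 h, and 3 belonged to the set: NEUROD1, PECAM1 and ALB. At 5 h chaetocin raised 9 of the 26 and chetomin 10, beside 4.56% and 7.02% of all genes called higher. Neither lowered any, beside 6.53% and 8.71% of all genes called lower. A marker near 0 in vehicle could be listed only through a group in which it was high, so these counts describe the listed markers only. Neuronal TUBB3 rose by 2.03 with chaetocin (limma adjusted p 0.00225) and by 3.0 with chetomin (adjusted p 0.000101). It already stood at a mean of 63.6 in 5 h vehicle. Monocyte CD14 rose by 1.42 and 1.27, and muscle ACTA1 by 1.53 and 1.32. Of the 8 neuron markers listed at 5 h, 2 rose with chaetocin and 3 with chetomin. Of the 6 muscle markers listed, 2 rose with each compound, and of the 3 blood and immune markers all 3. CD68 averaged 0.46 in 5 h vehicle, 3.985 with chaetocin, 3.27 with chetomin, 1.975 with MeS-chaetocin and 2.5 with MeS-chetomin. In the same order ITGAM averaged 0.075, 0.875, 0.815, 0.245 and 0.5, and CD14 0.13, 2.04, 1.73, 0.36 and 0.105. No test of the analogs is given for these markers. The share of markers listed at 12 h differed between lists. The germ line list had 1 of 10, the liver list 2 of 8 and the blood and immune list 4 of 16. The neuron list had 11 of 19, the muscle list 9 of 15 and the endothelium list 5 of 7. The kidney list had 0 of 5 and the retina list 0 of 4. Glia, connective tissue, pancreatic islet, keratinocyte, melanocyte and adipose had 1 each. A marker could be listed through vehicle as well: TNNT1 of the muscle list averaged 209 in 12 h vehicle. Of 11 colon epithelium markers 7 were listed, and CDX2, the intestinal transcription factor, fell with both compounds (-1.52 and -1.44, adjusted p 0.0153 and 0.00855) while the other 6 did not pass the test.

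The position of the genes was compared with that of active neighbours, since transcripts can run on past the end of a gene. A start within 10000 bases downstream of a gene on the same strand with a 12 h vehicle value of at least 1 was found for 16 genes, 16.33% of the set, beside 12.15% of 708 other genes with a mean 12 h vehicle value under 0.1 and 16.77% of all listed genes with a position. For 3 of them the upstream gene itself was at least 2-fold higher with both compounds: ASTL lies 4730 bases after DUSP2, which averaged 8.81 in vehicle, 54.7 with chaetocin and 105 with chetomin; F7 lies 6049 bases after MCF2L and FBXW10 7906 bases after TRIM16L. Among the others, PNLDC1 lies 1813 bases after MRPL18, which averaged 98.5 in 12 h vehicle, 152 with chaetocin and 170 with chetomin. IL34 lies 2225 bases after SF3B3, which averaged 142, 91.7 and 92.8 in the same order. CETP, 16987 bases after HERPUD1 (34.6, 133 and 114), lay outside the distance counted. The part of run-on transcripts was not tested for any of the 16 genes or for CETP. An active gene overlapped 9 genes of the set, 9.18% against 25.28% of the other near-silent genes and 32.84% of all listed genes. MYADML2, which overlaps PYCR1, was the one on the same strand.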

How the data were processed

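RNA sequencing libraries came from HCT116 cells, 2 per group, with groups read from the titles. Per the submitters' processing notes, the authors used STAR 2.5.2b with GRCh38, RSEM 1.3.3 and edgeR, the last with no version given, and no source used here gives their settings. Each of 8 deposited tables holds a normalized signal value per library, of unnamed unit, plus the authors' mean CPM per group (a signal unit), a log2 fold change, a p-value and a q-value. No depth was recovered for the chaetocin and chetomin libraries. Genes are listed where the authors' own filter kept them, so a gene that is absent at 5 h has no value there.

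The members, tissue groups and marker lists were chosen with earlier results of these data known. The test was limma 3.58.1 (R 4.3.3) with a trended prior on log2(value + 1), two-sided, with Benjamini-Hochberg adjustment over all genes and a threshold of 0.05. Comparisons with vehicle used 4 libraries and direct comparisons 6, vehicle included. Genes with 1 value in every library fitted were left out. All 80 library columns were used, the vehicle values being repeated between tables. The fit was tested on simulated data with the 5 h comparisons against vehicle. Of 100 genes shifted by 1 log2 unit, it recovered 46 for chaetocin, 62 for chetomin, 18 for MeS-chaetocin and 87 for MeS-chetomin. Of 100 shifted by 2 log2 units, it recovered 97 to 100. No test is reported at 12 h: a planned comparison of the analogs there took part of its spread from the vehicle values that chose the genes.

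Values in each library are given for the 12 members with the highest lowest treated value at 12 h, for those called at 5 h with the smallest adjusted p, and for those with a value of 1 or more in an analog library. Members called against an analog numbered up to 53, so beyond these their values are given by range, in the plot of all genes, a departure from the rule set for naming genes. Further members named in each tissue group are examples chosen after their values were seen. One gene just outside the limits is not reported here. Positions come from GENCODE 29 (GRCh38) and promoters from RefSeq (GRCh38.p14). Nothing in the labels says whether replicates of the same number were handled together. The p-values measure the spread between these libraries, pooled in large part over genes.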

Additional observations from a re-analysis of the deposited data

How the results depend on the processing

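The set held 98 genes under the stated limits, 65 with a vehicle limit of 0.05, 207 with a treated limit of 0.5 and 46 with a treated limit of 2; with 1 library left out of the choice it held 103 to 142. A minimum mean value of 1 moved the 5 h counts to 10 of 10 fitted genes for chaetocin against vehicle, 18 of 19 for chetomin against vehicle, 3 of 19 for chaetocin against chetomin, 6 of 6 for chaetocin against MeS-chaetocin and 11 of 11 for chetomin against MeS-chetomin, since few of the genes reach that mean. A gene near 0 in vehicle and analog libraries reaches it only through chaetocin or chetomin. The counts under this minimum therefore carry no weight for the set. For chaetocin against chetomin, the 8 calls became 3 with a pseudocount of 0.1, 13 with all libraries of the time point in the fit and 5 with the replicate block; the cause was not tested. Leaving out 1 library gave 0 to 1 calls there, 35 to 40 for chaetocin and 41 to 52 for chetomin against vehicle, 25 to 31 for chaetocin against MeS-chaetocin and 45 to 52 for chetomin against MeS-chetomin. Every other setting run, the authors' CPM scale and median-of-ratios scaling included, kept these 5 counts within 1.5 times, and no called gene changed direction in any setting. The 5 h comparisons with 0 calls stayed at 0. Whether replicate numbers pair the samples cannot be settled with 2 libraries per group. The deviations of same-numbered vehicle libraries at 5 h correlated by -0.455 with chaetocin and 0.664 with MeS-chaetocin. Fitted as a replicate block, the counts were 37 for chaetocin, 53 for chetomin, 33 for chaetocin against MeS-chaetocin and 54 for chetomin against MeS-chetomin. Values well under 1 rest on few reads and limit every statement on the analogs and vehicle.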
